A study of Rattus norvegicus with 6 samples.

Results

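The alpha-defensins of the rat ileum were followed as 7 genes, Defa5, Defa6, Defa8, Defa9, Defa11, Defa24 and Defal1, which were taken by symbol from the 28282 gene symbols counted by single-nucleus RNA sequencing (snRNA-seq). The CON group was 3 male Sprague-Dawley rats of 6 weeks with a sham laparotomy, and the SAP (severe acute pancreatitis) group was 3 such rats whose pancreatic duct received 3% sodium taurocholate at 0.1 mL per 100 g of body weight and 0.1 mL/min, with the duct then clamped for 5 min. All rats were wild type, had water but no food after surgery, and were killed at 24 h, and pieces of ileum with visible Peyer's patches were avoided. Each library was made from 1 rat, so n counts rats. Defa11 was not listed for CON replicate 2 and SAP replicate 2, and the other 6 genes were listed in every library.

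Alpha-defensins are short cationic peptides that damage bacterial membranes. In the small intestine they are made by Paneth cells at the base of the crypts, stored in granules as precursors, cut to the active form by a protease (Mmp7 in mice) and released into the crypt lumen. Other alpha-defensins are stored by neutrophils, and Defa5 carries the names ratNP-1 and ratNP-2 of rat neutrophil peptides among its RefSeq synonyms. In RefSeq the 7 genes lie on chromosome 16 in the order Defa5, Defa24, Defal1, Defa6, Defa8, Defa9, Defa11. Their sequences are closely related, so reads could be split between members, and the values of single members are uncertain to that extent.

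The promoter table used here held 2 of the 7 genes, and these differ widely in their counts: Defa9 gave 16258 to 968264 unique molecular identifiers (UMIs, 1 per captured RNA molecule) per library and Defa11 at most 17. The 250 bases before each annotated start (RefSeq, build GRCr8, 5′ to 3′ on the strand of the gene) are shown with 2 motifs in capitals, on either strand. The first was the TATA-like word CATAAA. The second was the core of the TCF site of Wnt signalling, which reads CTTTG on one strand. Defa9 lies on the plus strand at chr16:77184018-77184267 and Defa11 on the minus strand at chr16:77238042-77238291.
Defa9: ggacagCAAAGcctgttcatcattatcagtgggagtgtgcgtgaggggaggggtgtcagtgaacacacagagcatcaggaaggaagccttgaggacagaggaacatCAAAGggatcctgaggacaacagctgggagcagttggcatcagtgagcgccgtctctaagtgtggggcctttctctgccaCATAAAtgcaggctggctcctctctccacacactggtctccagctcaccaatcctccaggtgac
Defa11: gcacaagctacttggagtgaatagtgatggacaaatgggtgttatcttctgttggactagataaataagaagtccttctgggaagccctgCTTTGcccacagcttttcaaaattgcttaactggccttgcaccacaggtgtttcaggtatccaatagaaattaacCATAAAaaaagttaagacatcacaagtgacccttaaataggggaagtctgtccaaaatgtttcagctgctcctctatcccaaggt
CATAAA began 64 bases before the start of Defa9 and 85 bases before that of Defa11, and 11.4% of all 33469 promoters of this length held it on either strand. The TCF core occurred at 2 places in Defa9 and at 1 in Defa11, against 48.2% of all promoters with at least 1. TATAAA, which 12.9% of promoters held, was in neither window. These matches are descriptions of letters only.

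After the study's limits of at least 1200 UMIs, at least 500 genes and at most 5% mitochondrial UMIs, 40970 of 90461 barcodes remained, 3189 to 9246 per rat, with a median of 1516 to 1890 UMIs per nucleus. A further 49069 barcodes had under 1200 UMIs. The lowest listed barcode had 1000 UMIs in 4 libraries, and 545 and 502 UMIs in CON replicate 2 and SAP replicate 1. CON replicate 1 and SAP replicate 1 stood apart from the other 4 libraries in alpha-defensin level throughout, so results that rest on them are also given without both. Median mitochondrial shares were 0.70% and 1.84% in these 2 libraries and 0.125 to 1.29% in the others. Barcodes are numbered names rather than sequences, and pairs of libraries shared 701 to 7479 of these names, which does not show shared nuclei.

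The 7 genes together took 6534317 of 100387909 UMIs in passing nuclei. They made up 18.4% of all UMIs in CON replicate 1, 0.910% in CON replicate 2 and 1.27% in CON replicate 3, against 11.1% in SAP replicate 1, 0.744% in SAP replicate 2 and 0.764% in SAP replicate 3. The first library of each group stood far above every other one, and the groups overlapped because SAP replicate 1 lay above CON replicates 2 and 3. Nearly all of these UMIs came from 5 members, and Defa5 and Defa11 together had 35.

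Levels of the 5 abundant members, as UMIs scaled to 1e6 in all (CPM) over all passing nuclei, were highest in the first library of each group. Defal1 was at 48181, 2022 and 2936 in CON replicates 1 to 3 and at 24126, 1499 and 1735 in SAP replicates 1 to 3. Defa8 was at 41262, 1892 and 2467 in CON and at 24508, 1593 and 1546 in SAP. Defa24, a cryptdin-type member that RefSeq also lists as Defcr4, was at 38978, 2076 and 3666 in CON and at 21822, 1936 and 2018 in SAP. In these 3 genes SAP replicates 2 and 3 lay below all CON libraries, while SAP replicate 1 lay above CON replicates 2 and 3. Defa9 was at 33654, 1852 and 2090 in CON and at 17066, 1050 and 1201 in SAP. Defa6 was at 22072, 1255 and 1565 in CON and at 23756, 1358 and 1141 in SAP, so that it alone of the 5 was higher in SAP replicate 1 than in CON replicate 1.

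Nuclei were grouped into classes from genes other than the alpha-defensins, so that a class could be read for alpha-defensins without having been chosen by them. A Paneth-like class of 464 nuclei was led by RatNP-3b, Mmp7 and Pla2g2a. Mmp7, the protease named above, was at 694 to 1725 CPM in this class, with a UMI in 75% to 99.1% of its nuclei, against 2.41 to 36.2% of non-epithelial nuclei. The lysozyme gene Lyz2 was at 1242 to 19913 CPM in the class and at 62.4 to 3092 CPM in non-epithelial nuclei. Of the remaining markers used to name the class, Habp2, Itln1 and Nupr1 were also higher in it than in other nuclei, with all libraries pooled. Itln1 did not hold in every library. Its lowest level in the class was 39.1 CPM, in CON replicate 1, below the 57.8 to 4359 CPM of other named epithelial nuclei. Ang and Nod2 went the other way, at 13.1 and 0.354 CPM in the class against 20.3 and 3.27 CPM elsewhere. The class held 323 nuclei of CON replicate 1 and 20 to 47 of each other rat.

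Paneth-like nuclei had the highest alpha-defensin level of all classes in each of the 6 libraries. The summed members were at 602174, 166609 and 449262 CPM in CON replicates 1 to 3 and at 466947, 252544 and 247240 CPM in SAP replicates 1 to 3. In the non-epithelial nuclei of the same libraries they were at 70524, 6466 and 6152 CPM in CON and at 89913, 3793 and 5348 CPM in SAP. In a median Paneth-like nucleus the members made up 61.4% of all UMIs in CON replicate 1, 18.5% in CON replicate 2, 30.2% in CON replicate 3, 47.0% in SAP replicate 1, 19.2% in SAP replicate 2 and 19.3% in SAP replicate 3. The median count per nucleus ran from 270.5 UMIs in CON replicate 2 to 5017 UMIs in CON replicate 1. Single nuclei went as high as 77981 alpha-defensin UMIs in CON replicate 1 and 59314 in CON replicate 3. Alpha-defensins were at least 50% of the UMIs in 283 of 323 Paneth-like nuclei of CON replicate 1, 5 of 20 of CON replicate 3, 16 of 47 of SAP replicate 1, 1 of 30 of SAP replicate 3 and in none of CON replicate 2 or SAP replicate 2.

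**Figure D1:**
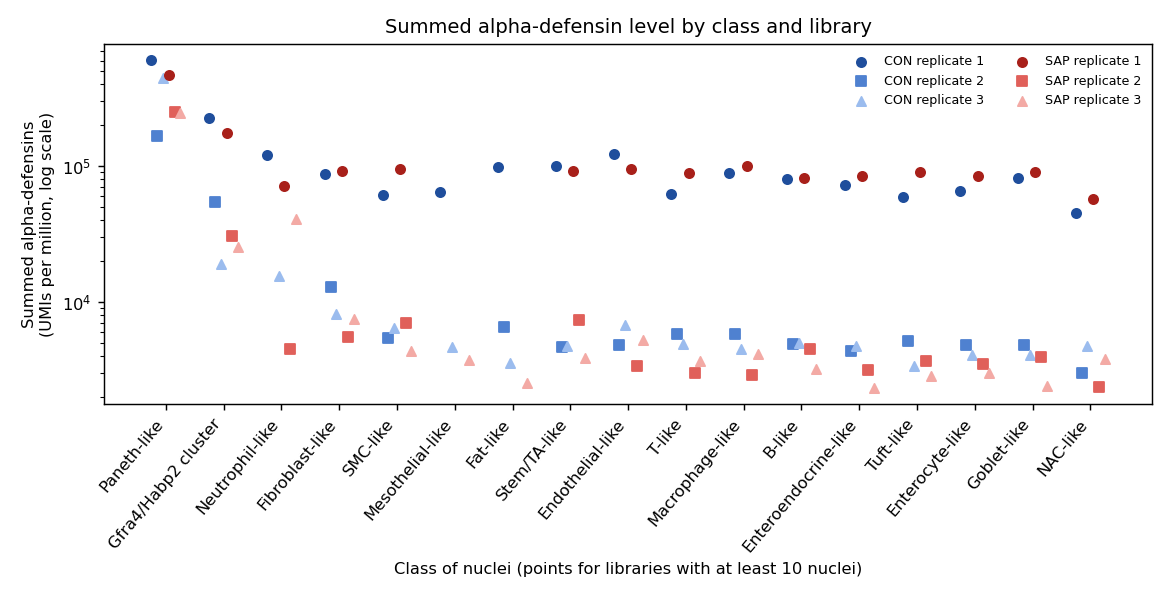
Summed alpha-defensin level (UMIs per 1e6, log scale) in each named class of nuclei and in the Gfra4/Habp2 cluster, with 1 point for each library that had at least 10 nuclei of the class, CON in blue and SAP in red. Paneth-like nuclei lie at 166609 to 602174 CPM, and in most other classes the first library of each group lies far above the remaining 4.

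A second group of crypt nuclei also stood above the rest. These 1425 nuclei, led by Gfra4, Kif19 and Habp2 and here called the Gfra4/Habp2 cluster, also had Lgr5, a gene of crypt base stem cells, at 185 to 518 CPM, and had Mmp7 at 235 to 928 CPM. Their best match was to the Paneth markers (score 1.58), with the stem cell markers next (0.885). This lead was below the 0.8 required for a name, and the cluster was left unnamed. At a lead of 0.5 it would have been named Paneth. Their summed alpha-defensins were at 225622, 54166 and 19166 CPM in CON replicates 1 to 3 and at 175961, 30698 and 25284 CPM in SAP replicates 1 to 3. This was above the non-epithelial level in all 6 rats, with a median ratio of 1.96 on the log2 scale. The ratio of the Paneth-like class had a median of 5.11 and ranged from 2.38 in SAP replicate 1 to 6.19 in CON replicate 3.

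The rest of the cluster named Paneth also stood above the non-epithelial level in all 6 rats. These 2283 nuclei, which remained after the cluster was divided, were left unnamed and lay at 14038 to 216284 CPM, with a median log2 ratio of 1.52. The other classes lay closer to the non-epithelial level. Median log2 ratios to the pooled non-epithelial level were -0.17 in Stem/TA-like nuclei, -0.21 in Goblet-like nuclei, -0.28 in Tuft-like nuclei, -0.32 in Enteroendocrine-like nuclei and -0.28 in Enterocyte-like nuclei. Among the non-epithelial classes they were 0.44 in Fibroblast-like nuclei, 0.04 in Endothelial-like nuclei, -0.07 in smooth muscle-like (SMC) nuclei, -0.26 in T-like nuclei and -0.65 in neuron-associated (NAC-like) nuclei. Enterocyte-like nuclei and T-like nuclei lay below the pooled level in all 6 rats and Fibroblast-like nuclei above it in all 6. Neutrophil-like nuclei had the highest median log2 ratio of the non-epithelial classes, at 0.79. They lay above the pooled level in 4 of the 5 libraries with at least 10 such nuclei. In SAP replicate 3 they reached 41087 CPM. There the mean nucleus had 153 alpha-defensin UMIs and the median nucleus 11, so that a few of its 47 nuclei carried the level. The highest non-epithelial class was 1.77 times above the lowest in SAP replicate 1, 2.71 to 4.33 times in the other libraries except SAP replicate 3, and 16.1 times there.

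Almost every nucleus of any class had at least 1 alpha-defensin UMI. With each nucleus thinned to 1200 UMIs, the share of T-like nuclei with a UMI was 100% in CON replicate 1, 99.3% in CON replicate 2, 98.3% in CON replicate 3, 100% in SAP replicate 1, 95.6% in SAP replicate 2 and 93.9% in SAP replicate 3, at median depths of 1660 to 3684 UMIs before thinning. Without thinning it was 98.0 to 100%. T cells are not known to make the Paneth cell members, and whether they did here was not tested. The share of Paneth-like nuclei, 100% in all libraries at median depths of 1633 to 8252 UMIs, was therefore not read as expression. The level separated the classes where the share did not, since the thinned median was 211.5 to 739 alpha-defensin UMIs in Paneth-like nuclei and 3 to 106 in T-like nuclei.

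Barcodes under 1200 UMIs may be droplets without a nucleus or nuclei of low depth, which were not told apart. They held alpha-defensins too. These were 12.0% of their UMIs in CON replicate 1, 1.00% in CON replicate 2, 0.874% in CON replicate 3, 19.3% in SAP replicate 1, 0.735% in SAP replicate 2 and 0.655% in SAP replicate 3. The same 2 libraries stood above the other 4 as in passing nuclei, but SAP replicate 1 was now the higher of them. In the range from 1000 to below 1200 UMIs, which every library listed, the shares were 12.0%, 0.922% and 0.874% in the CON rats and 14.6%, 0.735% and 0.655% in SAP.

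The count per barcode rose slowly with depth in non-epithelial nuclei. It was 154 UMIs per nucleus at 1200 to 1500 total UMIs and 199 at 2000 to 3000 in CON replicate 1, and 155 and 186 in SAP replicate 1. In the other 4 libraries it was 6.72 to 10.4 at 1200 to 1500 UMIs and 8.76 to 15.1 at 2000 to 3000. Between these depths the share of alpha-defensins went from 11.5% to 8.26% in CON replicate 1 and from 11.7% to 7.85% in SAP replicate 1. Over all barcodes the mean above 10000 UMIs was 7485 alpha-defensin UMIs in CON replicate 1, 1354 in CON replicate 3, 278 in SAP replicate 2 and 407 in SAP replicate 3.

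**Figure D2:**
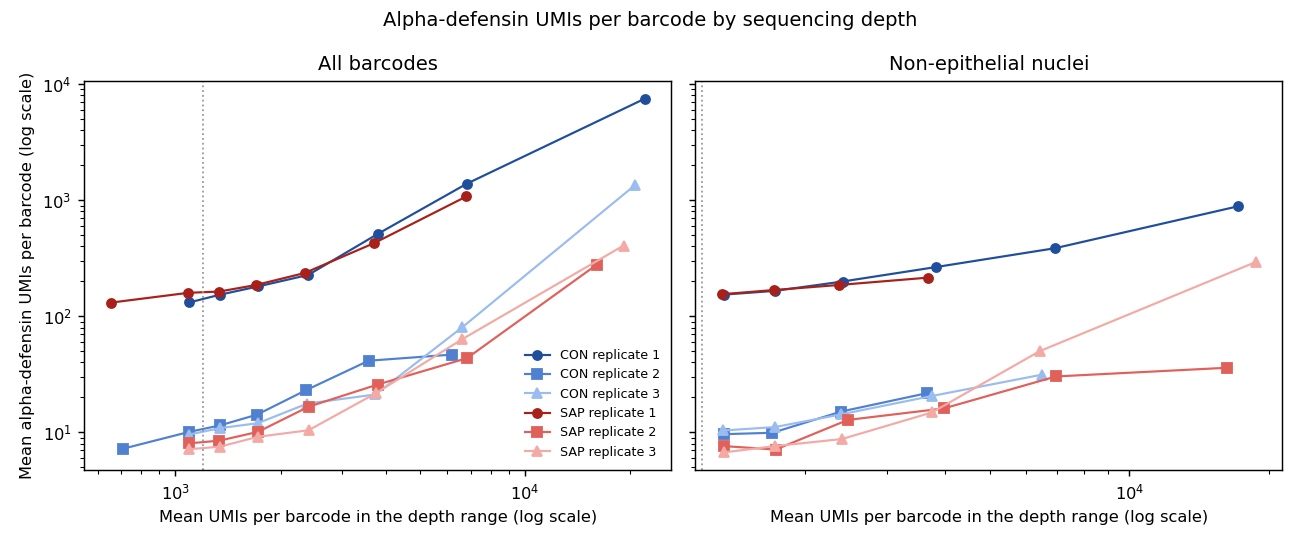
Mean alpha-defensin UMIs per barcode against mean total UMIs per barcode, both on log scales, in ranges of depth with at least 20 barcodes, for all barcodes (left) and non-epithelial nuclei (right), with 1 line per library and a dotted line at 1200 UMIs. CON replicate 1 and SAP replicate 1 start above 100 UMIs per barcode and the other 4 libraries near 10.

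The level of non-epithelial nuclei was used as a measure of free RNA, since these cells are not known to make the Paneth cell members. If every passing nucleus of a rat carried alpha-defensins at that level, this would account for 38.3% of the alpha-defensin UMIs of CON replicate 1, 71.1% of CON replicate 2, 48.3% of CON replicate 3, 80.8% of SAP replicate 1, 51.0% of SAP replicate 2 and 70.0% of SAP replicate 3. The mean was 52.6% ± 16.8 in CON and 67.3% ± 15.1 in SAP (SD, n = 3 each). The groups overlapped, with an exact two-sided permutation p = 0.3, where 0.1 is the smallest that 3 against 3 rats can give. The difference of 14.7 points became 0.790 points without CON replicate 1 and SAP replicate 1. Without nuclei over 1% mitochondrial UMIs the difference was 1.91 points, with UMIs per nucleus 24.5 points and with SMC-like nuclei alone as the level 31.2 points. The level was a pooled sum to which a few nuclei added much. The top 1% of non-epithelial nuclei held 4.46% of their alpha-defensin UMIs in SAP replicate 1 and 33.9% in SAP replicate 3, the lowest and highest. With the median nucleus as the level, SAP replicate 3 was at 42.7% instead of 70.0%. What these high nuclei were was not tested. The value depended on the limit on nuclei, the class taken as the level and the scale of the level. Its range over these settings was 32.8 to 43.5% in CON replicate 1, 51.0 to 79.9% in CON replicate 2, 38.4 to 87.7% in CON replicate 3, 62.6 to 89.4% in SAP replicate 1, 38.5 to 93.9% in SAP replicate 2 and 42.7 to 82.6% in SAP replicate 3. In absolute counts CON replicate 1 and SAP replicate 1 had the most such RNA, with a median of 156 and 153 UMIs per non-epithelial nucleus against 6 to 10 in the other 4 rats.

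Paneth-like nuclei, 0.238 to 3.49% of the nuclei of a rat, held 54.9% of alpha-defensin UMIs in CON replicate 1, 6.46% in CON replicate 2, 50.8% in CON replicate 3, 9.93% in SAP replicate 1, 33% in SAP replicate 2 and 34.3% in SAP replicate 3. CON replicates 1 and 3 were the highest and CON replicate 2 the lowest. The Gfra4/Habp2 cluster held 37.2% in CON replicate 2 and 4.16 to 6.43% in the other 5 rats. Non-epithelial nuclei held 7.99 to 26.3%, and unnamed clusters 13.0 to 28.9%. The top 1% of nuclei by alpha-defensin count held 9.62% of these UMIs in SAP replicate 1, 22.8% in CON replicate 2 and 37.1 to 61.1% in the other 4.

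**Figure D3:**
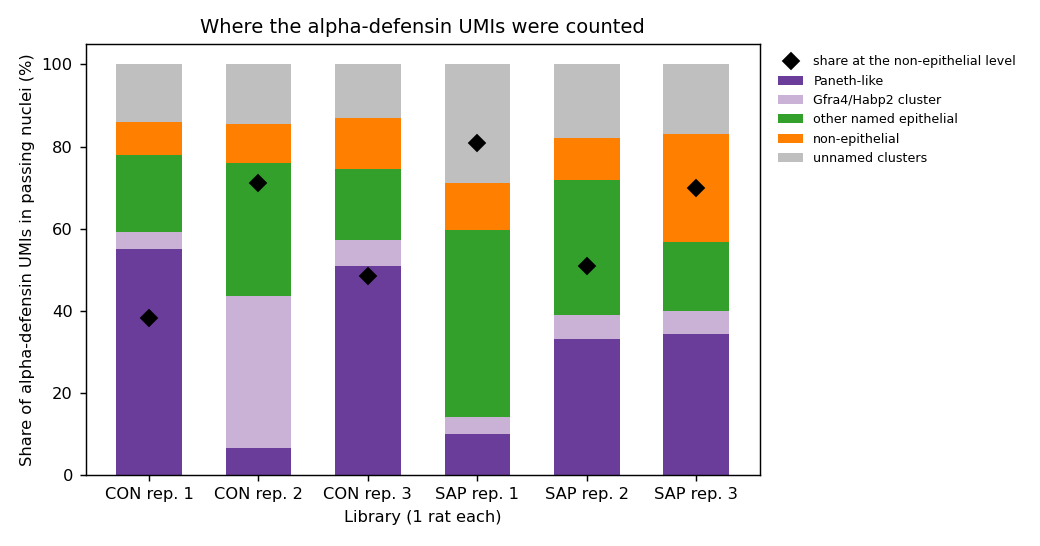
Share of the alpha-defensin UMIs of passing nuclei (%) by group of nuclei (stacked bars) in each library, and, as black diamonds, the share that all nuclei would hold at the level of non-epithelial nuclei. Paneth-like nuclei hold 6.46 to 54.9% and the diamonds lie at 38.3 to 80.8%.

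The members differed in how much each contributed, and the mixture varied between rats. Defa6 was 12.0%, 13.8% and 12.3% of the summed alpha-defensin UMIs in CON replicates 1 to 3 and 21.3%, 18.3% and 14.9% in SAP replicates 1 to 3. All SAP libraries lay above all CON libraries, and the means were 12.7% ± 0.968 and 18.2% ± 3.21 (SD, n = 3 each). Defa9 was 18.3%, 20.4% and 16.4% in the CON rats and 15.3%, 14.1% and 15.7% in SAP. All SAP libraries lay below all CON libraries, with means of 18.4% ± 1.97 and 15.1% ± 0.839. For both genes the exact two-sided permutation test gave p = 0.1, the smallest it can give, and an adjusted p = 0.25 over the 5 members, so neither difference passed. Without CON replicate 1 and SAP replicate 1 the differences were 3.55 points for Defa6 and -3.48 points for Defa9. Over 19431 genes, the CPM of the CON and SAP libraries did not overlap for 9.22%, and none of the 5 members was among them in CPM.

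The other 3 shares overlapped between groups. Defal1 was 26.2%, 22.2% and 23.1% in the CON rats and 21.7%, 20.2% and 22.7% in SAP (exact permutation, adjusted p = 0.333). Defa8 was 19.4 to 22.4% in the 6 libraries (adjusted p = 1.0). Defa24 was 21.2%, 22.8% and 28.8% in the CON rats and 19.6%, 26.0% and 26.4% in SAP (adjusted p = 1.0). The member with the largest share was Defal1 in CON replicate 1, Defa8 in SAP replicate 1 and Defa24 in the other 4 rats.

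For each member, shares differed less between Paneth-like and non-epithelial nuclei of 1 rat than the widest span between rats. For Defa6 the share in Paneth-like nuclei less that in non-epithelial nuclei was between -2.22 and 1.57 percentage points in the 6 rats, while the share in non-epithelial nuclei spanned 9.85 points between rats. For Defa9 the differences within a rat were -0.78 to 1.95 points against a span of 5.59 points between rats. For Defa8 they were -1.82 to 1.95 points against 2.92, and for Defa24 -1.65 to 3.69 points against 7.27. For Defal1 they were -3.86 to -0.39 points against 4.92, the widest within a rat of the 5 members. Defal1 thus made up less of the sum in Paneth-like nuclei in 6 of 6 rats, by 1.84 ± 1.56 points on average (SD), with a sign-flip permutation p = 0.0312, the smallest that 6 pairs allow, and an adjusted p = 0.156 over the 5 members. Barcodes under 1200 UMIs differed from non-epithelial nuclei of the same rat by at most 1.61 points for any member.

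**Figure D4:**
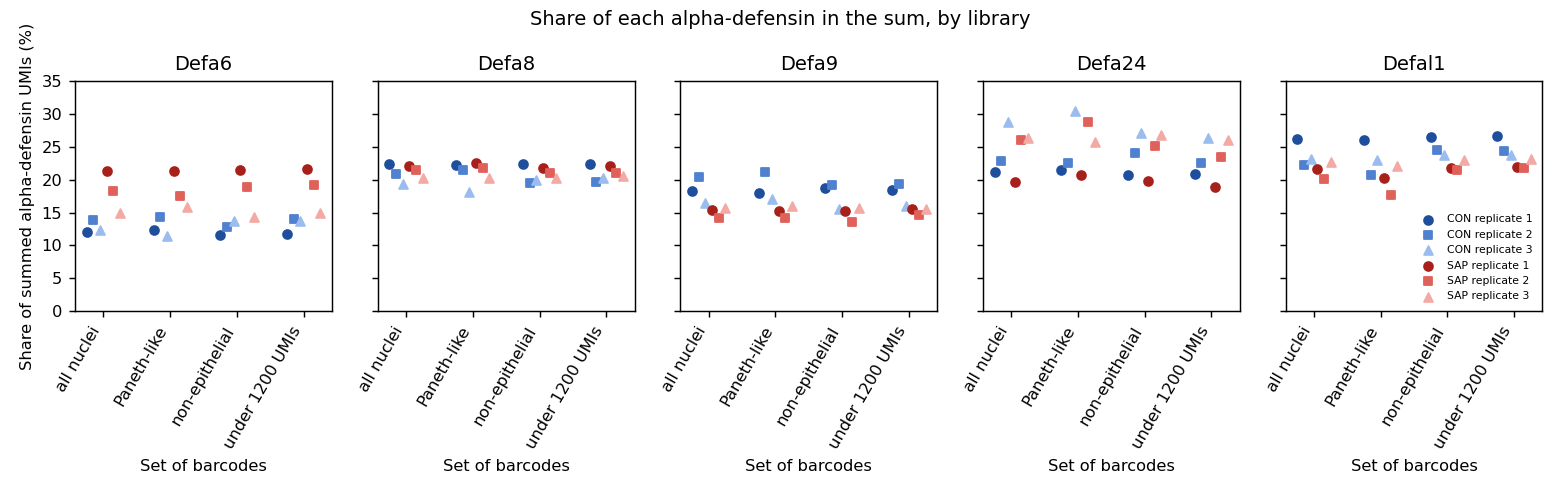
Share of Defa6, Defa8, Defa9, Defa24 and Defal1 in the summed alpha-defensin UMIs (%) of each library, in all passing nuclei, Paneth-like nuclei, non-epithelial nuclei and barcodes under 1200 UMIs, with CON in blue and SAP in red. Within a library the points of the 4 sets lie close to each other, and Defa6 is at 14.9 to 21.3% in SAP against 12.0 to 13.8% in CON over all passing nuclei.

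Single Paneth-like nuclei with at least 200 alpha-defensin UMIs carried all 5 abundant members together. This was bound to appear, since the limit was set on the summed count. Each of the 5 members also had a UMI in 59.9 to 100% of non-epithelial nuclei. Joint expression in single Paneth cells was therefore not tested. In the 322 such nuclei of CON replicate 1 the share of Defa6 had a median of 11.9% and ran from 8.68% to 15.2%, with an SD of 1.22 points against 0.498 from counting alone. Defal1 was the highest member in 293 of these nuclei, Defa8 in 25 and Defa24 in 4. In the 18 nuclei of CON replicate 3 Defa24 led in 16, and its share ran from 5.11% to 43.2%, with an SD of 7.50 points against 1.51 from counting alone. In the 47 nuclei of SAP replicate 1, Defa24 led in 17, Defa8 in 16, Defa6 in 8 and Defal1 in 7, ties counted for each. Defa9 was the highest in 3 of 11 nuclei of CON replicate 2 and in no such nucleus of the other 5 rats.

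The remaining 2 members were barely counted. Defa11 had 17 UMIs in CON replicate 1, 1 in CON replicate 3, 1 in SAP replicate 3 and none in SAP replicate 1, and 9 of these 19 UMIs were in Paneth-like nuclei. Defa5 had 6, 1 and 1 UMIs in CON replicates 1 to 3 and 0, 5 and 3 in SAP replicates 1 to 3, and 8 of these 16 UMIs were in Paneth-like nuclei. The 138 Neutrophil-like nuclei had no UMI of Defa5 among 360546, which allows a level of up to 8.32 CPM, from counting error only. Both genes were too low to enter the fits below.

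The SAP and CON rats were then compared by summing UMIs per rat and fitting all genes with edgeR's quasi-likelihood test. A gene was called at an adjusted p under 0.05 (Benjamini-Hochberg over all genes tested) and a log2 fold change of at least 0.5 in either direction. In all passing nuclei 0 of the 5 members tested was called, beside 0% of 19187 genes (0 genes), with 0 members and 1618 genes at an unadjusted p under 0.05, and DESeq2 called 0 members and 215 genes. Log2 fold changes ± SE were -0.02 ± 1.54 for Defa6, -0.83 ± 1.56 for Defa8, -1.07 ± 1.53 for Defa9, -0.90 ± 1.43 for Defa24 and -1.07 ± 1.56 for Defal1, with adjusted p of 0.896 to 0.998 by edgeR. The sign rested on single rats: without CON replicate 1 the change was 1.95 for Defa24 to 3.01 for Defa6, and without SAP replicate 1 it was -3.05 for Defa6 to -3.84 for Defa9. Without both it was -0.02 for Defa6 to -0.71 for Defa9. In such sums, fewer Paneth cells and less RNA per Paneth cell cannot be told apart. Within pairs of the same replicate number the summed members were at 0.604, 0.818 and 0.60 of the CON level, lower in 3 of 3 pairs. How many of all genes were lower in 3 of 3 pairs was not counted. With the replicate number as a block the log2 fold change was -0.88 ± 0.29 for Defa9 (unadjusted p = 0.0218, adjusted p = 0.386) and the block called 0 of the 5 members by edgeR. In that fit 2380 of 19187 genes had an unadjusted p under 0.05, and 0 genes were called.

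In Paneth-like nuclei alone the groups overlapped for each of the 5 members. Defa24 was at 129285, 37447 and 136859 CPM in CON replicates 1 to 3 and at 96437, 72714 and 63468 CPM in SAP. For Defal1 the CON rats had 157031, 34465 and 103024 CPM, and the SAP rats had 94876, 44670 and 54731 CPM. Defa9 was at 108187, 35185 and 76363 CPM in CON and at 71185, 35703 and 39595 CPM in SAP. In these 3 genes CON replicate 2, with 20 nuclei, was the lowest library and the groups overlapped. Defa8 was at 133548, 35757 and 81547 CPM in CON and at 105088, 55105 and 50171 CPM in SAP. Defa6 was at 74122, 23755 and 51470 CPM in CON and at 99361, 44325 and 39275 CPM in SAP, with SAP replicate 1 the highest library.

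No member was called in these nuclei either. Log2 fold changes ± SE were -0.21 ± 1.31 for Defa6, -0.84 ± 1.33 for Defa8, -1.13 ± 1.31 for Defa9, -0.94 ± 1.30 for Defa24 and -1.21 ± 1.35 for Defal1, each with an adjusted p = 0.99977 by edgeR. The calls were 0 of 5 members, beside 0% of 2814 genes (0 genes), with 98 genes and 0 members at an unadjusted p under 0.05, and DESeq2 called 0 members and 3 genes. With the replicate number as a block, 0 members and 1 gene were called. Without CON replicate 1 the change was -0.13 for Defa24 to 0.92 for Defa6, and without SAP replicate 1 it was -1.26 for Defa6 to -2.06 for Defal1. The summed level was lower in the SAP rat in 2 of 3 pairs, at 0.775, 1.52 and 0.550 of the CON level.

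In non-epithelial nuclei and in barcodes under 1200 UMIs the fitted changes of all 5 members were positive, where those above were negative, with SEs of 1.27 to 1.78. Log2 fold changes in non-epithelial nuclei were 0.05 ± 1.39 for Defa9 to 1.17 ± 1.42 for Defa6, and in barcodes under 1200 UMIs 0.67 ± 1.76 for Defal1 to 1.76 ± 1.78 for Defa6 (SE). The calls were 0 of 5 members in both, beside 0% of 16135 and 0% of 13313 genes, with 1140 and 996 genes and 0 members at an unadjusted p under 0.05, and DESeq2 called 0 members in both and 77 and 94 genes. With the block, 4 genes and no member were called in non-epithelial nuclei. Fits in the 14 classes with at least 10 nuclei in every rat called 0 members by edgeR or by DESeq2. The share of all genes that edgeR called was 0.0364% in the Gfra4/Habp2 cluster, 0.0209% in Endothelial-like, 0.0161% in Enteroendocrine-like, 0.0128% in Tuft-like, 0.0111% in SMC-like and 0.00778% in Stem/TA-like nuclei, and 0% in the other 8 classes. DESeq2 called 1.72% of genes in SMC-like, 0.84% in Stem/TA-like and 0 to 0.485% in the other 12 classes. Without CON replicate 1 and SAP replicate 1, changes in barcodes under 1200 UMIs were -0.02 for Defa6 to -0.61 for Defa9 on the log2 scale, against 0.67 to 1.76 with them.

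**Figure D5:**
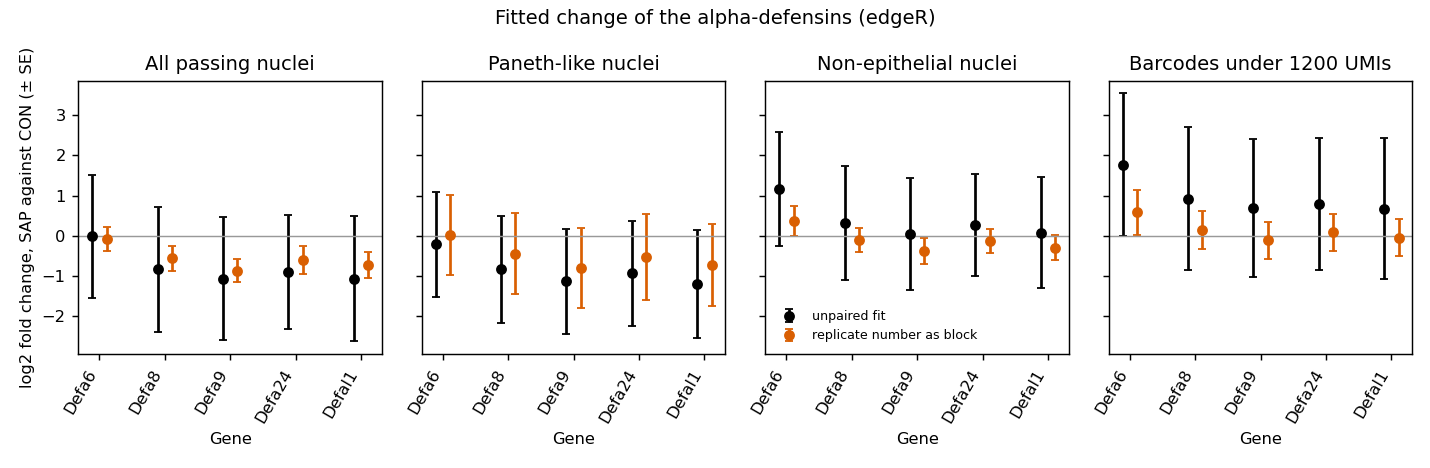
Log2 fold change of SAP against CON (± SE) of the 5 abundant alpha-defensins in all passing nuclei, Paneth-like nuclei, non-epithelial nuclei and barcodes under 1200 UMIs, from edgeR without (black) and with (orange) the replicate number as a block. The unpaired SEs are 1.27 to 1.78 and no gene was called.

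The ratio of the Paneth-like to the non-epithelial level showed the same lack of separation. For Defa6 it was 3.18, 4.85 and 5.93 on the log2 scale in CON replicates 1 to 3 and 2.36, 5.96 and 5.68 in SAP. The first library of each group was the lowest and the others were alike. Means were 4.65 ± 1.39 in CON and 4.67 ± 2.00 in SAP (SD, n = 3 each), with an exact permutation p = 0.9 and an adjusted p = 1.0 over the 5 members. Differences between group means for the 5 members were -0.04 to 0.04.

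Other Paneth cell and antimicrobial genes were read from a list of 34. In all passing nuclei 31 were tested and 0 passed in either direction, and in Paneth-like nuclei 18 were tested and 0 passed. In all passing nuclei the median log2 fold change was -0.16 for the 11 granule and secreted genes, -0.56 for the 3 processing genes and -0.21 for the 17 fate and control genes, against 0.02 for all genes tested. Itln1, an intelectin that binds microbial sugars, was at 39.1, 49.7 and 1928 CPM in Paneth-like nuclei of CON and at 32280, 24214 and 9392 CPM in SAP, without overlap (log2 fold change 4.97 ± 1.70, adjusted p = 0.99977 by edgeR). Pla2g2a, a secreted phospholipase that acts on bacterial membranes, was at 29667, 14859 and 12750 CPM in CON and at 8491, 6777 and 6132 CPM in SAP, again without overlap (-2.02 ± 1.24). In Paneth-like nuclei the libraries of the groups did not overlap for 7.0% of 6790 genes. Itln1 and Pla2g2a were also among the markers that named the class. Over the libraries they were at 34.5 to 4324 and 147 to 4109 CPM in non-epithelial nuclei. Mmp7 (-0.65 ± 1.08), Lyz2 (1.37 ± 1.31), Reg3g (-0.54 ± 1.18) and Habp2 (0.46 ± 0.47) had log2 fold changes within about 1 SE of 0.

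Over 106 sums of class and library with at least 20 nuclei, the genes most like the summed alpha-defensins were RatNP-3b (Pearson r = 0.983), Mmp7 (0.949), Lyz2 (0.917), Nupr1 (0.895), Pla2g2a (0.893), Rpl12 (0.862), Rpl36 (0.820), Rpl27a (0.817), Rpl19 (0.802) and Rpl28 (0.799), among 8665 genes on log2(CPM + 10). With the mean of each library removed, r was 0.990 for RatNP-3b, a defensin of the neutrophil peptide family, 0.941 for Pla2g2a and 0.650 for Rpl12. The sums of 1 library share its depth and its free RNA. Mmp7, Lyz2, Nupr1 and Pla2g2a were also among the markers that named the Paneth-like class, so a high r was partly built in for them. RatNP-3b itself was at 9073 to 40516 CPM in Paneth-like nuclei and at 121 to 4228 CPM in non-epithelial nuclei.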

How the data were processed

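Nuclei of 6 ileal samples were profiled by droplet snRNA-seq (DNBelab C4), and the authors deposited UMI counts per gene and barcode, made with dnbc4tools; the submitters' processing notes name build mRatBN7.2 and Seurat 4.3.0. The spatial data were not analysed here. The members, gene lists and tests were chosen with earlier results of these data known. Counts were used as deposited, with the study's limits on nuclei (at least 1200 UMIs, at least 500 genes, at most 5% mitochondrial UMIs). Nuclei were log-normalised without the members, and 2000 variable genes, without defensin, Reg3, RT1 and mitochondrial genes and genes the study names, 30 principal components, Harmony and Leiden clustering (resolution 0.8, 20 neighbours; scanpy 1.11.5) gave clusters, which were named from marker lists by a marker score of at least 0.5 and a lead of at least 0.8. The choice of variable genes was made after first clusters were seen, and the cluster named Paneth was divided once more after it was seen to be heterogeneous. Classes are rebuilt and can differ from the study's.

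Counts were summed per rat and tested with edgeR 4.0.16, with TMM scaling, its default expression filter and a robust quasi-likelihood model. SEs were taken from the log2 fold change and its F value. Single values were compared by exact permutation. Counts were simulated for all passing nuclei at the spread of these libraries (18699 genes tested). Of changes put into random genes above the median level, 95% of 8-fold and 2% of 2-fold ones were called. These rates describe such genes and not the members, whose SEs in all passing nuclei were 1.43 to 1.56. Same-numbered rats deviated together (correlations over genes 0.572, 0.191 and 0.529), against -0.613 to 0.147 for rats of unlike number. The contrast was partly built in. Deviations were taken from the group mean, so the covariances of a rat with the rats of the other group cancel out. A positive value with a rat thus requires a negative value with another. The 0.147, of CON replicate 2 with SAP replicate 1, was close to the 0.191 of CON replicate 2 with its own number. The pairing came from the label numbers, and no label says what a number marks. The replicate number was therefore fitted as a block only as an alternative. Alternatives were DESeq2 1.42.0, filters, scalings, other clusterings and leaving out rats. Scrublet marked 0% of nuclei at its own threshold, so doublets stayed in and removal of the top 5% of scores was an alternative. All 7 members were named, with the other genes by the list of Paneth cell and antimicrobial genes and the 10 highest correlations. Shares and counts carry counting error and the free RNA of each library, and promoters came from RefSeq (GRCr8).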

Additional observations from a re-analysis of the deposited data

How the results depend on the processing

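No member was called in any of 217 fits, in the 4 sets of barcodes, the 14 classes and all alternatives. Leaving out 1 rat decided the sign of most log2 fold changes. In all passing nuclei these ranged from -3.05 to 3.01 for Defa6, -3.62 to 2.45 for Defa8, -3.84 to 2.07 for Defa9, -3.25 to 1.95 for Defa24 and -3.82 to 2.25 for Defal1. In Paneth-like nuclei they ranged from -1.26 to 0.92 for Defa6, -1.72 to 0.43 for Defa8 and -2.06 to 0.037 for Defal1. The sign did not turn there for Defa9 (-1.97 to -0.020) and Defa24 (-1.53 to -0.13). In non-epithelial nuclei they ranged from -2.22 to 3.30 for Defa6, -2.79 to 2.76 for Defa8, -3.03 to 2.43 for Defa9, -2.41 to 2.30 for Defa24 and -2.92 to 2.48 for Defal1. In barcodes under 1200 UMIs they ranged from -2.39 to 4.10 for Defa6, -3.01 to 3.62 for Defa8, -3.22 to 3.27 for Defa9, -2.72 to 3.14 for Defa24 and -3.17 to 3.34 for Defal1. Positive ends came without CON replicate 1 and negative ends without SAP replicate 1. Without both, the changes in barcodes under 1200 UMIs were -0.022 for Defa6, -0.29 for Defa8, -0.61 for Defa9, -0.34 for Defa24 and -0.46 for Defal1, and in non-epithelial nuclei -0.087, -0.34, -0.65, -0.38 and -0.52 for the same genes.

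With the replicate number as a block, signs turned for Defa9 (-0.12) and Defal1 (-0.047) in barcodes under 1200 UMIs, for Defa6 (0.021) in Paneth-like nuclei, and for Defa8 (-0.10), Defa9 (-0.38), Defa24 (-0.14) and Defal1 (-0.30) in non-epithelial nuclei, and the block changed no call of a member. Defa6 in all passing nuclei was 0.0056 with DESeq2, 0.077 with library totals alone and 0.023 with the members left out of totals. Library totals alone gave 0.34 for Defa6 in Paneth-like nuclei, where that scaling moved the median of all genes from -0.03 to 0.33, and -0.037 for Defa9 and -0.0077 for Defal1 in non-epithelial nuclei. There, at most 1% mitochondrial UMIs gave -0.27 for Defa8, -0.56 for Defa9, -0.33 for Defa24 and -0.49 for Defal1, no Harmony gave -0.12 for Defa9 and -0.083 for Defal1, and no filter gave -0.017 for Defa9.

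The difference of the group means of the Paneth-like to non-epithelial log2 ratio ranged, leaving out 1 rat, from -0.72 to 1.16 for Defa6, -0.75 to 1.17 for Defa8, -0.89 to 1.11 for Defa9, -0.75 to 1.17 for Defa24 and -0.78 to 1.07 for Defal1. It was -0.19, -0.17 and -0.17 for Defa6, Defa8 and Defa24 with doublets removed, -0.025 and -0.021 for Defa6 and Defa24 at resolution 0.4, -0.70, -0.67 and -0.69 for Defa6, Defa8 and Defa24 on UMIs per nucleus, and -0.19, -0.14 and -0.20 for them with the Paneth cluster undivided. It was 0.15 and 0.25 for Defa9 and Defal1 at a naming lead of 0.5, and 0.26 and 0.33 without both first libraries. The share of Paneth-like less that of non-epithelial nuclei ranged from -0.29 to 0.47 points for Defa6 and -0.090 to 0.66 for Defa8, leaving out 1 rat. It was -0.0094 and -0.062 for Defa6 and Defa8 at resolution 0.4, -0.049 and -0.082 with the cluster undivided, and -0.10 for Defa6 without both first libraries. The SAP less CON share ranged from -0.37 to 1.14 points for Defa8 and -1.80 to 2.02 for Defa24, and was 0.41 for Defa24 without both first libraries and -0.038 for Defa8 with at most 1% mitochondrial UMIs. The causes were not tested.

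The group difference of the share at the non-epithelial level ranged from 7.56 to 23.9 points leaving out 1 rat. It was 0.79 points without both first libraries, 1.91 with at most 1% mitochondrial UMIs, 11.1 with T-like nuclei and 31.2 with SMC-like nuclei as the level, 24.5 on UMIs per nucleus and 12.6 with the median nucleus, against 14.7, and passed no test. The number of genes called in all passing nuclei was 0 with edgeR and 215 with DESeq2, in Paneth-like nuclei 0 and 3, and up to 10 in the alternatives (without a filter; 8 without CON replicate 2). Paneth-like fits without Harmony, and Paneth-like fits, ratios and shares with at most 1% mitochondrial UMIs, were not run, since a rat had fewer than 10 such nuclei. Leaving out both first libraries, the undivided cluster and the median nucleus as level were chosen after seeing the data. The fits had 3 rats a group, and Paneth-like sums held as few as 20 nuclei. Defa5 and Defa11 were too shallow to be compared.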
